A study of Saccharomyces cerevisiae with 24 samples.

Results

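MICOS, the mitochondrial complex that shapes the contact sites and cristae of the inner membrane, is built from 6 subunits in budding yeast, and each of them is encoded by a gene that yeast can live without. The 6 strains described here each lack one of these genes: MIC60 (YKR016W), MIC19 (YFR011C), MIC10 (YCL057C-A), MIC12 (YBR262C), MIC26 (YGR235C) and MIC27 (YNL100W). They were picked by systematic name from the probe annotation of the array, without use of any measured value. The 6 strains were represented by 14 of 14129 barcode probes, and by 6 of 5526 strains with a barcode probe. Each strain carried 1 uptag and 1 downtag, the short unique sequences that flank the deletion cassette, and Δmic19 had 2 further probes for re-sequenced versions of its uptag.

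MICOS sits in the mitochondrial inner membrane at cristae junctions, the narrow necks through which the cristae membrane is continuous with the inner boundary membrane. In yeast, loss of Mic60 or Mic10 detaches the cristae from the boundary membrane and leaves stacks of inner membrane sheets in the matrix, whereas loss of a peripheral subunit has milder effects. Mic60 binds Mic19 and reaches partners in the outer membrane, Mic10 bends the membrane by forming oligomers, and Mic12, Mic26 and Mic27 are found with Mic10. Mdm33 is another inner membrane protein, and its overproduction arrests growth and alters inner membrane structure.

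The pool was the haploid MATα deletion collection in the BY4742 background, so that every sample held the same strains, each with 1 gene deleted. It was transformed with pYX223, the empty vector, or with pYX223-MDM33, a multicopy plasmid that carries MDM33 behind the GAL1/10 promoter. Transformants were selected for 4 days on glucose plates and then grown on plates with 2% glucose for 2 days, where the promoter is repressed, or with 2% galactose for 4 days, where it is active. Sugar and time on the plate therefore differed together. The 4 groups were empty vector on glucose, empty vector on galactose, MDM33 plasmid on glucose and MDM33 plasmid on galactose, each in 2 independent experiments. The last of these is called the induced pool from here on. Each gene was tested in 1 deletion strain, and the plasmid was carried by a mixed pool of transformants rather than by single clones.

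Barcodes were amplified from the genomic DNA of the pooled colonies and hybridised, with uptags and downtags labelled separately, in 24 dye channels. Experiment 1 used 1 dye per sample, Cy5 for both glucose samples and Cy3 for both galactose samples, so that dye and sugar cannot be told apart there; comparisons of plasmids stayed within a dye. Experiment 2 used both dyes for every sample. A signal is given in arbitrary intensity units after scaling of each channel to a common total. It therefore reports a share of the pooled barcodes rather than cell numbers, and it does not separate fewer cells from less barcode DNA recovered per cell. Signals of different barcodes do not share a scale, so levels are compared only within a strain.

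The induced pool stood apart from the other samples. The median distance between experiments was 1.74 on the log2 scale over the 4183 tested strains in this group and 0.65 to 0.76 in the other 3 groups. The detection limit, the 99th percentile of probes complementary to the unlabelled kind of tag, lay at 785.7 to 3339.4 units in its channels and at 175.9 to 836.6 units elsewhere. A strain was called detected when the signal of at least 1 tag exceeded this limit. Strains that lack GAL3 or GAL4, which are needed to induce the promoter, gave 402345 and 74799 units (Δgal3, experiments 1 and 2) and 14414 and 207340 units (Δgal4) in this group, against 1887 and 11038 units (Δgal3) and 4421 and 2832 units (Δgal4) in the empty vector pool on galactose.

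The 6 MICOS strains did not behave alike in the induced pool. Δmic60 and Δmic19 gave clear signals in both experiments. Δmic12 fell, and it was the 1 strain of the 6 that passed the test against the empty vector (limma over all strains tested, Benjamini-Hochberg at 0.05), a test that 10.0% of all tested strains passed. Δmic26 and Δmic27 had lower signals than with the empty vector in both experiments without passing the test, and Δmic10 was abundant in experiment 1 and below the detection limit in experiment 2. All 6 strains were detected in both experiments in each of the other 3 groups. In the induced pool 3 of the 6 (Δmic60, Δmic19 and Δmic27) were detected in both experiments and 3 (Δmic10, Δmic12 and Δmic26) in experiment 1 alone. Over all strains with a probe, 41.0% were detected in both experiments in this group and 66.2% to 68.3% in the others. With original barcode probes alone, which cover 4977 strains, the shares were 44.1% and 72.5% to 74.2%.

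**Figure D1:**
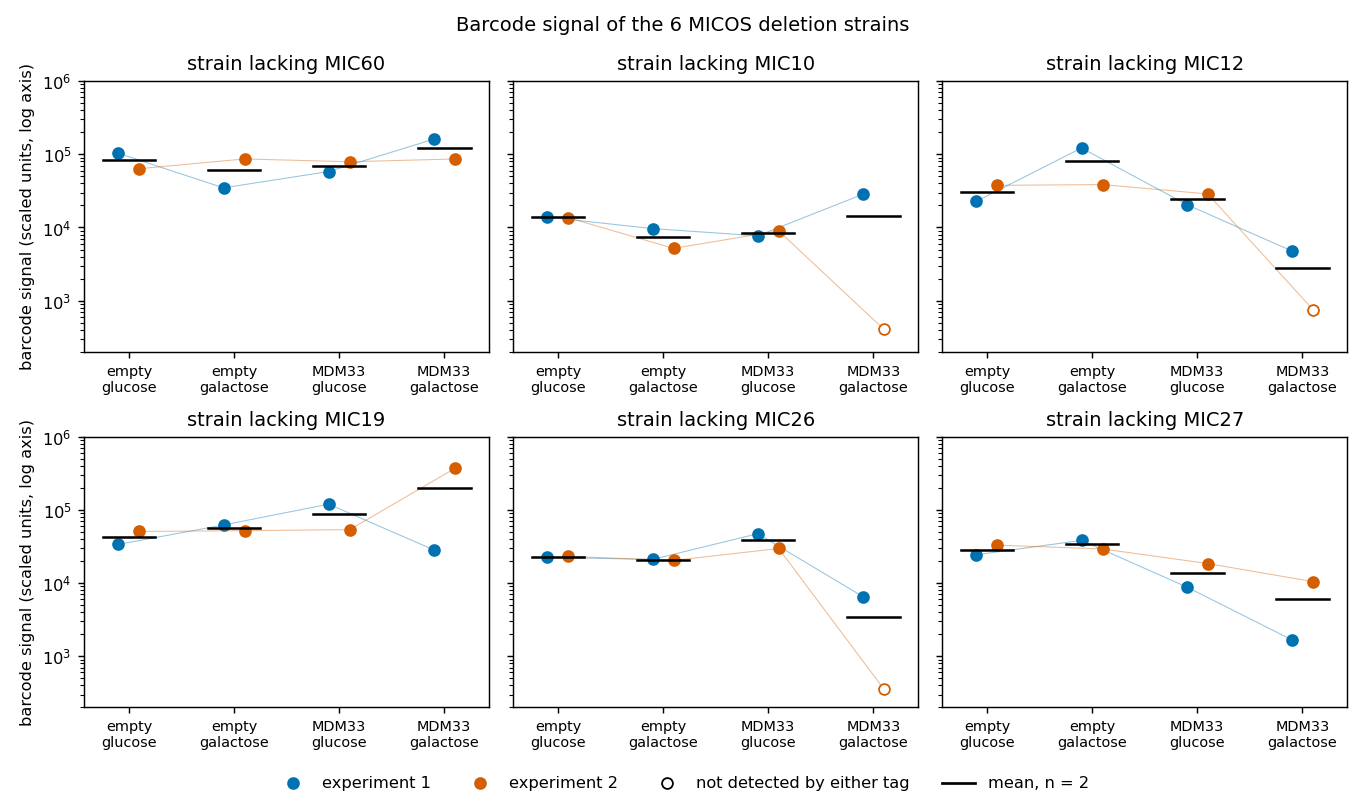
Signal of each MICOS deletion strain in each sample (log10 axis, arbitrary intensity units; mean of both tags), with 1 point per experiment in each of the 4 plasmid and sugar groups. Bars are means, open circles mark strains detected by neither tag, and lines join the samples of an experiment. In the induced pool (MDM33, galactose) the signals run from 356 units (Δmic26) to 367680 units (Δmic19), both in experiment 2.

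Mic60 is the core subunit that spans the inner membrane with a large intermembrane space domain. Δmic60 gave 102993 and 63512 units with the empty vector on glucose and 34772 and 86313 units in the empty vector pool on galactose, in experiments 1 and 2. With the MDM33 plasmid it gave 58081 and 78981 units on glucose, and 160657 and 86216 units on galactose. The galactose signal with the MDM33 plasmid was 4.62 times that with the empty vector in experiment 1 and the same in experiment 2 (ratio 0.999), so the groups overlapped. The difference of 1.10 ± 0.84 (log2 of the signal plus 500 units, SE, 2 experiments per group) did not pass the test (limma, adjusted p = 0.407), and its 95% interval ran from -0.87 to 3.06. The median ratio over all tested strains was 40.0% in experiment 1 and 16.1% in experiment 2, and the ratios of Δmic60 lay at percentiles 92.1 and 77.0.

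The tags of Δmic60 gave different pictures of this comparison. In the induced pool the downtag gave 285139 and 126951 units, and the uptag 36176 and 45481 units. With the empty vector on galactose, the downtag gave 55179 and 86342 units and the uptag 14365 and 86284 units. The downtag was thus higher with the MDM33 plasmid in both experiments, 5.17 and 1.47 times, whereas the uptag was 2.52 times as high in experiment 1 and lower in experiment 2 (ratio 0.527). A probe that differs from the uptag at a single central base followed the uptag, with ratios of 3.19 and 0.292. With uptags alone the difference between plasmids was 0.19 on the log2 scale, and with downtags alone 1.46, neither past the test.

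Mic19 is a small intermembrane space protein that binds Mic60. Δmic19 gave 33744 and 50562 units with the empty vector on glucose, 62005 and 51893 units with the empty vector after galactose, and 119443 and 53580 units with the MDM33 plasmid on glucose. The induced pool gave 28393 units in experiment 1 and 367680 units in experiment 2, so that 1 experiment lay below and the other far above the rest. In experiment 1 the signal was 2.18-fold lower than with the empty vector and in experiment 2 it was 7.09-fold higher, at percentiles 49.2 and 96.9 of the tested strains. The mean difference of 0.85 ± 1.22 did not pass the test (limma, adjusted p = 0.682), with a 95% interval from -1.996 to 3.70. Without experiment 1 of this group the difference was 2.69, and without experiment 2 it was -0.99.

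The opposite directions of Δmic19 in the 2 experiments appeared in every probe for the strain. In experiment 1 the ratio of the MDM33 plasmid to the empty vector on galactose was 0.403 with the original uptag probe, 0.428 and 0.334 with the probes for the re-sequenced uptag, 0.227 with the mismatch probe and 0.506 with the downtag. In experiment 2 the same probes gave 8.71, 12.3, 12.3, 11.3 and 5.37. Both dyes of experiment 2 were high in the induced pool, with 431660 (Cy3) and 496074 (Cy5) units for the uptag and 198691 and 344294 units for the downtag. The spread of Δmic19 between experiments was thus present in independently labelled tags.

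Mic10 is the core subunit whose oligomers curve the membrane. Its strain was read through 1 tag, since the uptag stayed between 0 and 576 units in all groups and never exceeded the limit. The strain signal, the mean of both tags, was 13848 and 13573 units with the empty vector on glucose, 9652 and 5186 units with the empty vector after galactose, and 7691 and 8981 units with the MDM33 plasmid on glucose. In the induced pool it was 28373 units in experiment 1, the highest value of the strain, and 407 units in experiment 2, where neither tag exceeded the limit. The downtag was 2.91 times as high as with the empty vector in experiment 1 and at least 6.83-fold lower in experiment 2, where the limit was taken in place of the signal. The strain ratios between plasmids lay at percentiles 87.9 and 44.4 of the tested strains in experiments 1 and 2.

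Of the 6 strains, Δmic10 had the widest gap between experiments in this group, 4.99 on the log2 scale. The difference between plasmids on galactose was -0.57 ± 1.48 and did not pass the test (limma, adjusted p = 0.834), with a 95% interval from -4.01 to 2.87. Its sign depended on the experiment: it was -3.07 without experiment 1 of this group and 1.93 without experiment 2.

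Mic12 joins the Mic10 and Mic60 sides of the complex. Δmic12 gave 22824 and 37624 units with the empty vector on glucose, 121808 and 38530 units with the empty vector after galactose, and 20548 and 28715 units with the MDM33 plasmid on glucose. The induced pool gave 4777 units in experiment 1 and 757 units in experiment 2, below every other value of the strain and below the limit in experiment 2. The uptag carried most of the signal. It had 0.0394 times its signal with the empty vector in experiment 1 and was at least 33.1-fold lower in experiment 2. The strain ratios lay at percentiles 5.5 and 10.9 of the tested strains.

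Δmic12 was 1 of the strains that fell, with a difference of -4.75 ± 1.00 (limma, adjusted p = 0.0420; 95% interval from -7.08 to -2.41). Of the 4183 tested strains, 10.0% passed this test, 9.80% as lower and 0.239% as higher, and 1 of the 6 MICOS strains did. The median difference over all tested strains was -1.59, and over the 6 MICOS strains -1.68. When channels were scaled to the 75th percentile of the labelled barcodes in place of their total, the median over all tested strains moved to 0.72 and the difference of Δmic12 to -2.29 (limma, adjusted p = 0.277), and with the 75th percentile of all probes the values were -0.82 and -3.69 (limma, adjusted p = 0.352).

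The call of Δmic12 did not hold without single control samples. Its difference is computed from the galactose samples alone, so leaving out a glucose sample cannot move it from -4.75. The difference was -3.92 and -5.57 without experiment 1 and 2 of the empty vector on galactose. The call was lost without either experiment of the empty vector on glucose (adjusted p = 0.0861 for each, limma), of the MDM33 plasmid on glucose (0.0791 for each) and of the empty vector on galactose (0.191 without experiment 1 and 0.169 without experiment 2), and no tested strain passed in any of these fits. The difference was -5.78 without experiment 1 of the induced pool and -3.71 without experiment 2. These fits leave the group with the widest spread with 1 value, so no call is read from them. The uptag gave 9555 and 1448 units in the induced pool against 242627 and 73845 units with the empty vector, and the downtag was weak, with at most 3918 units in any channel. The mismatch probe for the uptag was also lower with the MDM33 plasmid, 1671 and 465 units against 29113 and 4546 units. With uptags alone the difference of Δmic12 was -4.92 (limma, adjusted p = 0.120), and with downtags alone -2.14 (limma, adjusted p = 0.252). Neither tag passed the test by itself.

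**Figure D2:**
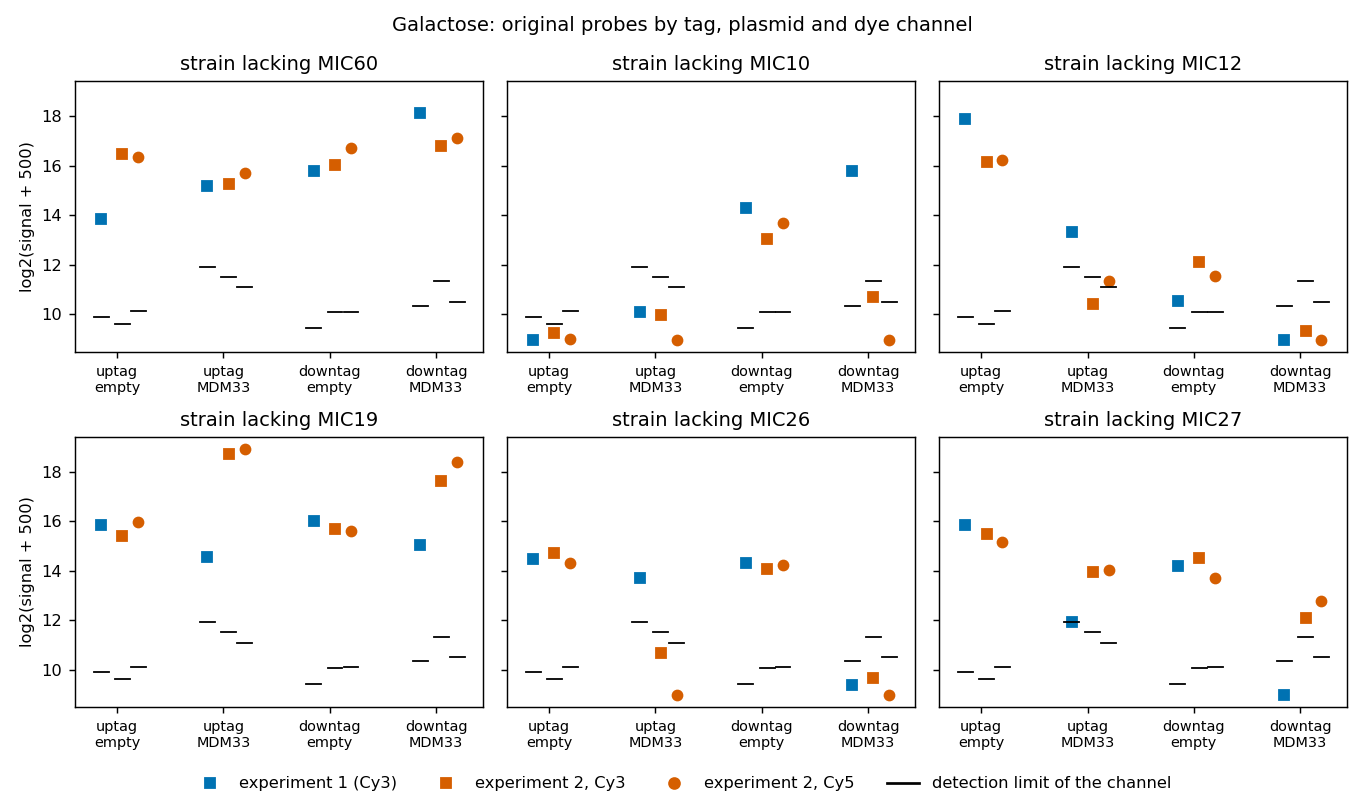
Signal of the original probe of each tag in each dye channel on galactose (vertical axis, log2 of the intensity plus 500 units), with the empty vector and with the MDM33 plasmid, for the 6 MICOS strains; short lines mark the detection limit of the channel. The uptag of Δmic12 is lower with the MDM33 plasmid in every channel, whereas the tags of Δmic19 are lower in experiment 1 and higher in both dyes of experiment 2.

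Mic26 is a member of the apolipoprotein O family, as is Mic27. Δmic26 gave 22449 and 23115 units with the empty vector on glucose, 21017 and 20341 units with the empty vector after galactose, and 47164 and 29632 units with the MDM33 plasmid on glucose. In the induced pool it gave 6530 units in experiment 1 and 356 units in experiment 2, both lower than in any other sample, and neither tag exceeded the limit in experiment 2. The remaining signal of experiment 1 came from 1 tag: the uptag gave 12889 units and the downtag 172 units, below the limit. Against the empty vector the downtag was at least 25.1-fold and at least 11.7-fold lower in experiments 1 and 2, and the uptag at least 11.3-fold lower in experiment 2. Most strains fell in this comparison, and the strain ratios of Δmic26 lay at percentiles 40.2 and 15.2 of the tested strains.

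The difference of Δmic26 between plasmids on galactose was -3.11 ± 1.07 (95% interval from -5.59 to -0.63) and did not pass the test (limma, adjusted p = 0.0877). It passed with downtags alone (-4.86; limma, adjusted p = 0.00918) and not with uptags alone (-2.62; limma, adjusted p = 0.188). It also passed with the mean of the log2 values of both tags (-3.74; limma, adjusted p = 0.0239) and in a fit to single channels (-3.91; limma, adjusted p = 0.00143). The fit to single channels takes tags and dyes of the same DNA as separate values, although they are no replicates. In that fit 43 of 4096 strains passed as higher and 1069 as lower. Without experiment 1 of the induced pool the difference was -4.63, and without experiment 2 it was -1.59.

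Mic27 is the family member that stabilises Mic10 oligomers. Δmic27 gave 24351 and 32886 units with the empty vector on glucose, 38241 and 29197 units with the empty vector after galactose, and 8830 and 18468 units with the MDM33 plasmid on glucose. The induced pool gave 1677 units in experiment 1 and 10464 units in experiment 2. The order of the experiments was thus opposite to that of Δmic10, Δmic12 and Δmic26, which were lower in experiment 2. In experiment 1 the uptag was just above the limit (1.004 times) and had 0.0575 times its signal with the empty vector, while the downtag was listed at 0, at least 23.1-fold lower. In experiment 2 both tags exceeded the limit and the signal was 2.79-fold lower. The strain ratios lay at percentiles 7.9 and 64.3 of the tested strains, so in experiment 2 Δmic27 fell less than the median strain. The difference was -2.80 ± 0.97 (95% interval from -5.06 to -0.53; limma, adjusted p = 0.0909) and did not pass the test. It passed in the fit to single channels (-2.86; limma, adjusted p = 0.00495), which has the limit named for Δmic26. Without experiment 2 of the induced pool the difference was -3.96, and without experiment 1 it was -1.63.

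The signals of the 2 plasmid groups on galactose did not overlap for Δmic12, Δmic26 and Δmic27, all lower with the MDM33 plasmid. The same held for 50.1% of all tested strains, so that 3 of 6 was the share of the background. No MICOS strain was higher without overlap, against 5.76% of the tested strains. With channels scaled to the 75th percentile of the labelled barcodes, the differences became -0.90 for Δmic26 and -0.17 for Δmic27, that of Δmic10 turned to 1.80, and those of Δmic60 and Δmic19 became 3.86 (limma, adjusted p = 0.0820) and 3.77 (limma, adjusted p = 0.295).

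**Figure D3:**
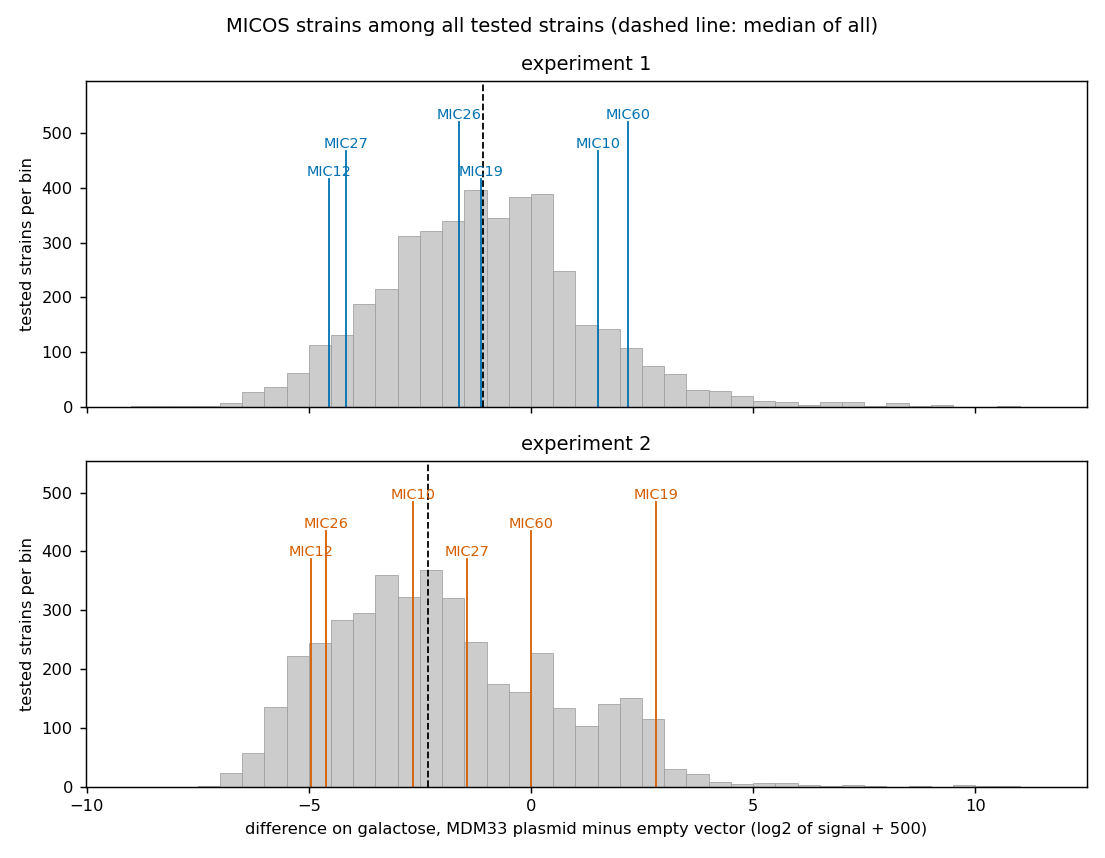
Number of tested strains (vertical axis) by the difference between MDM33 plasmid and empty vector on galactose (horizontal axis, log2 of the signal plus 500 units), in each experiment, with the 6 MICOS strains marked. The medians of the 4183 strains are -1.08 in experiment 1 and -2.31 in experiment 2; Δmic60 lies above the median in both experiments and Δmic12 below it in both.

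The plasmids were also compared on glucose, where the promoter is repressed. None of the 6 MICOS strains passed the test (limma, adjusted p = 1.00 for each), and neither did any of the 4183 tested strains (0%), of which 44 had an unadjusted p under 0.05. In a simulation of the fit, changes were given to the induced pool alone, so it does not show what this comparison could detect. The absence of calls is not read as an absence of change. The differences ran from -1.11 ± 0.97 (Δmic27) to 0.95 ± 1.22 (Δmic19). The signals of Δmic10 and Δmic27 were lower with the MDM33 plasmid in both experiments without overlap, as were those of 13.4% of the tested strains. Those of Δmic19 and Δmic26 were higher, as were those of 11.0% of the tested strains. The intervals were wide, from -3.38 to 1.15 for Δmic27 and from -1.90 to 3.79 for Δmic19. They rest on 1 spread shared by all groups, which includes the induced pool. The experiments of Δmic19 differed by 0.58 (empty vector) and 1.15 (MDM33 plasmid) on the log2 scale on glucose, and by 3.67 in the induced pool.

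With the empty vector, galactose and glucose were compared to show the effect of the sugar and of the longer growth alone. No MICOS strain passed (limma, adjusted p = 1.00 for each), nor did any tested strain (0%; 79 with an unadjusted p under 0.05). What size of change this comparison could detect was not tested, so the absence of calls is not read as an absence of change. The differences ran from -0.90 ± 1.48 (Δmic10) to 1.21 ± 1.00 (Δmic12). The signals of Δmic12 and Δmic19 were higher on galactose without overlap between the groups, against 13.8% of the tested strains, and those of Δmic10 and Δmic26 were lower, against 17.0%. For Δmic12 the 2 experiments differed in size, since the galactose signal was 121808 units in experiment 1 and 38530 units in experiment 2, close to the 37624 units on glucose in that experiment.

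With the MDM33 plasmid, galactose was compared with glucose. No strain of the 4183 passed (0%; smallest adjusted p 0.0610, limma), whereas 1550 had an unadjusted p under 0.05. The median difference was -1.93 over all tested strains and -1.11 over the 6 MICOS strains. The differences were -3.95 ± 1.07 for Δmic26 (limma, adjusted p = 0.0654), -3.27 ± 1.00 for Δmic12 (limma, adjusted p = 0.0733) and -1.45 ± 0.97 for Δmic27 (limma, adjusted p = 0.311). They were -0.78 ± 1.48 for Δmic10 (limma, adjusted p = 0.729), 0.36 ± 1.22 for Δmic19 (limma, adjusted p = 0.860) and 0.79 ± 0.84 for Δmic60 (limma, adjusted p = 0.525).

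The galactose signals of Δmic12 and Δmic26 were below their glucose signals in both experiments without overlap, as for 57.7% of the tested strains. Those of Δmic60 were above, as for 4.18% of the tested strains. Against glucose the downtag of Δmic26 was at least 43.2-fold and at least 14.0-fold lower on galactose in experiments 1 and 2, and the uptag of Δmic12 at least 25.0-fold lower in experiment 2. The downtag of Δmic60 was higher on galactose (6.01 and 1.66 times), whereas its uptag was lower (ratios 0.527 and 0.558), so that the direction for Δmic60 depended on the tag. This comparison shares the samples of the induced pool with the comparison of plasmids on galactose, so the values are not independent of each other.

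The interaction of plasmid and sugar asked whether the change from glucose to galactose differed between plasmids. No MICOS strain passed, nor did any tested strain (0%; 762 with an unadjusted p under 0.05). The values were -4.48 for Δmic12 (limma, adjusted p = 0.239), -3.81 for Δmic26 (limma, adjusted p = 0.257), -1.68 for Δmic27 (limma, adjusted p = 0.533), 1.35 for Δmic60 (limma, adjusted p = 0.567), 0.12 for Δmic10 and -0.10 for Δmic19 (limma, adjusted p = 0.985 for both). Simulated data had 1 pooled spread per strain in all groups, and changes in the induced pool alone. On them the interaction test recovered 0% of 100 strains given a log2 change of 6. The absence of calls in the data is not read as an absence of change. In the data the induced pool varied more than the other groups, which the simulation did not copy. For the comparison of plasmids on galactose the recovery was 8% at a change of 3 and 56% at a change of 6. The simulation lowered 100 of 4183 strains by 3 and 100 by 6, whereas in the data the median interaction over all tested strains was -1.65. The adjustment of p depends on how many strains change, so these recoveries do not give the reach of the fit to the data.

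**Figure D4:**
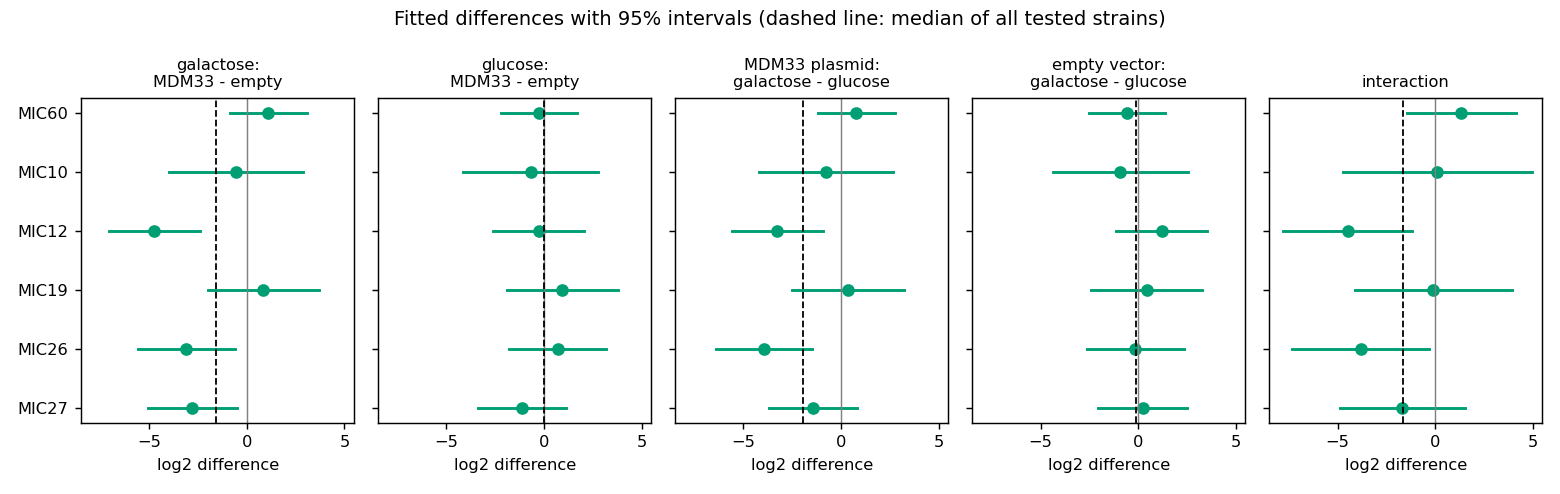
Fitted log2 differences of the 6 MICOS strains (points) with 95% intervals (bars) in the 5 comparisons, and the median of all tested strains (dashed lines). Δmic12 on galactose, at -4.75, is the only point past the test.

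Likeness between strains was described by Pearson's r of the log2 values over the 8 samples, which share pool and arrays, and the 2 tested strains with the highest r are named for each MICOS strain. Δmic60 was nearest to the strains lacking YGR153W (r = 0.955) and GRE1 (r = 0.915). Δmic10 was nearest to strains lacking SDH6 (r = 0.985), an assembly factor of succinate dehydrogenase, and PRM6 (r = 0.968). The Δsdh6 strain had 20998 units in experiment 1 and 111 units in experiment 2 in the induced pool, the same split between experiments as Δmic10. These values are among those by which Δsdh6 was picked. Δmic12 was nearest to strains lacking DDP1 and NIS1 (r = 0.991 for both), and Δmic26 to strains lacking RIM11, a protein kinase, and YBR013C (r = 0.994 for both).

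Δmic19 was nearest to strains lacking CIN1 (r = 0.995), a tubulin folding factor, and YEL025C (r = 0.985). The Δcin1 strain gave 33510 and 223542 units in the induced pool, low in experiment 1 and high in experiment 2 as Δmic19 was. Again, the strain was picked by these values among others. Δmic27 was nearest to strains lacking MET32 (r = 0.977), a transcription factor of sulphur metabolism, and AVT6 (r = 0.973), a vacuolar amino acid transporter. No MICOS strain was among the 2 nearest strains of another.

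The list of inner membrane and outer membrane partners of MICOS held 26 genes, among them prohibitins, cardiolipin enzymes, the Mdm31 family, ATP synthase dimer subunits, inner membrane proteases and subunits of the ER-mitochondria encounter structure. Of these, 25 had a barcode probe and 18 were tested. Of the 18, 1 passed the limma test as higher with the MDM33 plasmid on galactose and 4 as lower, against 0.239% and 9.80% of all tested strains. The median difference of the 18 was -1.92 against -1.59 over all tested strains. The strain lacking PHB2, a prohibitin subunit, rose by 4.06 ± 0.81 (limma, adjusted p = 0.0416), with 37779 and 40888 units with the MDM33 plasmid and 1432 and 2454 units with the empty vector. The strain lacking PHB1, the other prohibitin subunit, was not higher (-0.58 ± 0.92; limma, adjusted p = 0.711). It gave 41077 and 12875 units with the MDM33 plasmid and 37921 and 31963 units with the empty vector.

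The 4 partner strains that fell lack GEP4, the phosphatase of cardiolipin synthesis (-6.06; limma, adjusted p = 0.0404), YME1, an inner membrane protease (-4.93; limma, adjusted p = 0.0416), OMA1, another protease (-3.80; limma, adjusted p = 0.0467), and MDM32, an inner membrane protein related to Mdm31 (-3.32; limma, adjusted p = 0.0445). None of these 4 calls held with either 75th percentile as the scale, with uptags alone, with array weights or without any 1 of the 6 samples outside the induced pool, since no tested strain was called lower in those fits, and the call of PHB2 ended with uptags alone, with array weights and without any 1 of those samples. No partner strain passed in the other 4 comparisons. Among the partners not called, the strain lacking ATP20, an ATP synthase dimer subunit, had 184575 units in experiment 1 and 597 units in experiment 2 of the induced pool, high and low in the same order as Δmic10.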

How the data were processed

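Per the labels and the study's methods, the arrays were scanned and spots quantified by the authors, who deposited background-corrected linear intensity values, scaled to a common total per channel (147379488 to 147666701 units). Of 14767 annotated probes, 14740 were used, and 24 columns of unscaled values were left out because their numbers do not match the sample titles. The genome build of the array design is not given in the sources used here; of 5526 strains, 5086 matched a locus tag in the RefSeq annotation of assembly R64, which was used for names only.

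From the deposited intensities, the brighter of the original and re-sequenced probes was taken for each tag, dye channels were averaged, then both tags. Strains with a mean ratio to the detection limit above 1 were kept, which left 4183 strains and all 6 MICOS strains. Values were analysed as log2 of the signal plus 500 units with limma 3.58.1 in R 4.3.3, which left 4 residual degrees of freedom; p-values were adjusted by Benjamini-Hochberg over all 4183 strains and read at 0.05. The spread was shared by the groups, which have 2 values each, and an exact permutation test cannot reach a small p at this size. The shared spread includes that of the induced pool, so it can be too wide for the other groups and too narrow for the induced pool. The experiment number pairs the samples, since each transformation was plated on both sugars. The deviations of same-numbered samples correlated with r from 0.0615 to 0.318 over the 6 pairs of groups. With the experiment as a replicate block, the comparison of plasmids on galactose called 8 strains as higher and 215 as lower in place of 10 and 410, and Δmic12 remained past the test (adjusted p = 0.0492). The fit was tested on simulated data. The MICOS strains, the partner list and the naming rule were chosen with earlier results of these data known. The rule names all 6 strains, partners past the test on galactose and the 2 strains nearest to each by Pearson's r. The strains lacking GAL3, GAL4, PHB1 and ATP20 were added for scale. Alternatives changed the offset, scaling, filter, tags, probes, detection limit, weights, block and single experiments. The number of arrays limits the precision.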

Additional observations from a re-analysis of the deposited data

Results flagged for a closer look

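From glucose to galactose, Δmic12 fell with the MDM33 plasmid in both experiments, and with the empty vector it clearly rose in experiment 1 alone. With the empty vector the log2 differences were 2.39 in experiment 1 and 0.034, close to no change, in experiment 2. With the MDM33 plasmid they were -1.996 and -4.54, where the medians over all tested strains were -1.54 and -2.50. The interaction, the difference between these changes, was -4.48 (limma, adjusted p = 0.239) and did not pass the test. In experiment 1 glucose and galactose samples carried different dyes, and the part of the dye in these values cannot be told apart from that of the sugar.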

How the results depend on the processing

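The number of MICOS strains past the test between plasmids on galactose was 1. It was 0 with an offset of 100, with either 75th percentile as the scale, with uptags alone and with array weights, 2 with the mean of log2 tag values, 3 with single channels, and 0 to 4 when 1 experiment of a group was left out. Between galactose and glucose with the MDM33 plasmid it was 0, with 1 for an offset of 2000, downtags alone, mean log2 tag values or single channels. In the interaction it was 0, with 1 for single channels, among the fits that kept every sample. The replicate block left these counts as they were. With glucose or the empty vector the count was 0 in every alternative.

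The following signs reversed. Scaling by the 75th percentile over all probes gave 0.42 (Δmic10) and 0.18 (Δmic27) for galactose against glucose with the MDM33 plasmid, 0.45 (Δmic60) and 0.79 (Δmic26) with the empty vector, and 1.43 (Δmic19) for the interaction. Scaling to that of the labelled barcodes gave 1.80 (Δmic10) between plasmids on galactose, 1.47 (Δmic10) and 1.29 (Δmic27) for the sugars with the MDM33 plasmid, and 2.79 (Δmic19) and 0.88 (Δmic27) for the interaction. Uptags alone gave -0.88 (Δmic60, sugars, MDM33 plasmid), downtags alone 0.32 (Δmic26, sugars, empty vector) and -0.21 (Δmic10, interaction), an offset of 100 gave -0.20 (Δmic10, interaction) and single channels 0.18 (Δmic19, interaction). The cause was not tested. Leaving out 1 experiment gave -3.07 to 1.93 (Δmic10) and -0.99 to 2.69 (Δmic19) between plasmids on galactose, -0.60 to 0.092 (Δmic60) and -0.62 to 0.088 (Δmic12) on glucose, -3.28 to 1.71 (Δmic10) and -1.48 to 2.19 (Δmic19) for the sugars with the MDM33 plasmid, -1.21 to 0.093 (Δmic60) with the empty vector, and -2.38 to 2.62 (Δmic10) and -1.93 to 1.74 (Δmic19) for the interaction. A sample left alone in its group is assumed to vary like the others. Signals below the detection limit bound Δmic10, Δmic12 and Δmic26 only from above. Between plasmids on galactose, strains past the test numbered 10 higher and 410 lower, 2 and 73 with an offset of 100, 21 and 611 with 2000, 19 and 689 without a filter, 43 and 1069 with single channels, 5 and 506 with downtags, and 0 with uptags or array weights; the 75th percentile scalings gave 2 and 14 higher and 0 lower.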
